A study of Mus musculus with 8 samples.

Results

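The NF-kB pathway gene loci described here are the promoters of Nfkb1, Nfkb2, Rela, Relb, Nfkbia, Tnfaip3 and Birc3, seen through chromatin loops. A loop was a member when 1 of its 2 anchors lay within 2 kb of an annotated transcription start of any of the 7 genes. This rule, which used no loop value, gave 217 distinct loops of the 249200 in the series. All 7 genes had at least 1 promoter anchor, and Nfkb1 and Tnfaip3 had 2. Each of these anchors held a start inside it, and a distance of 5 kb would have added further anchors of Nfkb1 and Nfkb2.

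The loops came from Hi-ChIP, an assay that ligates DNA fragments lying close together in the nucleus and then enriches those bound by a chosen protein. The chosen proteins were FOXA1, a pioneer factor that opens chromatin, and HNF4G, a nuclear receptor that binds DNA. Both were profiled in 2 lines of the KPC pancreatic cancer mouse model, grown out of a primary tumor and out of the matched liver metastasis (liver mets), which made 4 groups of 2 replicates and 8 samples. All samples carried the labels wild type (WT) and untreated, although a protocol text shared by the series also speaks of CRISPR, and all cells grew in DMEM with fetal bovine serum. Every group shared the KPC background. Each factor was read in 1 line per context, and nothing states that replicates came from separate cultures. Each group had 1 loop list that joined both replicates, so there was no spread between replicates, no test between groups was run and depth is unknown. Expression was not analysed here, so the labelled cell type was not checked against markers. All 95% intervals below cover counting error only and treat loops as independent, although many share an anchor.

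NF-kB is a family of dimeric transcription factors that inhibitor proteins hold inactive in the cytoplasm. Signals from cytokine and innate immune receptors lead to destruction of the inhibitors (canonical arm) or to processing of the Nfkb2 precursor, which pairs with RelB (non-canonical arm). Several inhibitors, among them the products of Nfkbia and Tnfaip3, are themselves switched on by NF-kB and end the response, and in pancreatic cancer the pathway is known for inflammation and cell survival.

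Promoter sequence is shown first for the feedback genes and Nfkb2, because matches to the NF-kB consensus lie inside the promoter anchors that the loops start from. The sequences are from RefSeq on GRCm38.p6, run 5′ to 3′ on the strand of the gene, and have these matches in capitals. Matches on either strand were counted, and overlapping ones were joined to 1 match. For Nfkbia the 250 bases before the start (chr12:55492648-55492897, minus strand) held 1 match, which began 29 bases before the start. For Tnfaip3 the 137 bases next to the start that no exon of the gene covers (chr10:19015411-19015547, minus strand) held 2 matches, which began 125 and 12 bases before the start. For Nfkb2 only 30 bases around a match in a first exon are given for each of 2 starts (chr19:46304688-46304717 and chr19:46305695-46305724, plus strand).
Nfkbia promoter: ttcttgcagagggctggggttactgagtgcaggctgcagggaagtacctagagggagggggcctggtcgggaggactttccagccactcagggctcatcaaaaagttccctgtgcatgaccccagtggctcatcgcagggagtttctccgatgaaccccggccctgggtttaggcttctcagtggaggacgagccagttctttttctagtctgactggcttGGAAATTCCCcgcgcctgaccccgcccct
Tnfaip3 promoter: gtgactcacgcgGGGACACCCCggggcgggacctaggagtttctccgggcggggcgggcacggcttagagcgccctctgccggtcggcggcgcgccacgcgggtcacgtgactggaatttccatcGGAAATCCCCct
Nfkb2 promoter, upstream start: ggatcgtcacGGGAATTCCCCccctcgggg
Nfkb2 promoter, downstream start: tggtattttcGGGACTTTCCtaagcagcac

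The consensus was found in 5 of the 8 promoter windows of 300 bases listed for the members (Nfkb2 with 3 windows, Tnfaip3 with 2, and 1 each for Nfkbia, Rela and Birc3). The 5 windows were the 3 of Nfkb2, which overlap in part, that of Nfkbia and 1 of Tnfaip3. Over all genes 8.46% of such windows held it. Nfkb1 and Relb had no window in this table. In the central 1000 bases of the promoter anchors, 9 of 9 member anchors held the consensus, beside 27.7% of the 13819 promoter anchors of the lists. None of the 8 windows held the FOXA core TGTTTAC, the FOXA core TGTTTGC or the HNF4 core CAAAGTC, which 3.65%, 5.07% and 4.44% of all windows held. Such matches describe letters and not bound sites.

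The distal partners of Tnfaip3 had the highest values of all members, and stretches are shown from the 2 of the top 3 whose stretch held TGTTTAC. The other of the top 3, 177 kb upstream, is left out, since the stretch taken from it in the same way, the one richest in core matches, held CAAAGTC and no FOXA core. Both partners shown lie in introns of the gene Gm20139 upstream of Tnfaip3, and both are printed on the plus strand with core matches in capitals. The stretch at chr10:19188849-19188998 belonged to the partner 172 kb upstream and held 2 copies of TGTTTAC. The stretch at chr10:19150908-19151057 belonged to the partner 135 kb upstream and held TGTTTAC beside CAAAGTC.
Tnfaip3 partner, 172 kb upstream: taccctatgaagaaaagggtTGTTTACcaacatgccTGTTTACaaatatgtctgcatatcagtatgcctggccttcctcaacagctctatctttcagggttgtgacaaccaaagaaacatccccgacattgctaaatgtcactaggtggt
Tnfaip3 partner, 135 kb upstream: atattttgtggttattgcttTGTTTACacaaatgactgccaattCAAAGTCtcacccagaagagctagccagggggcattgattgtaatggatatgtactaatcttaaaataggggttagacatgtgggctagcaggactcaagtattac

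Over all 204 partner anchors of the 7 genes, 15.2% held TGTTTAC in their central 1000 bases, 18.1% held TGTTTGC and 13.2% held CAAAGTC. These shares were 19.8%, 21.8% and 14.9% over all 30542 anchors. Among the 73 partners with no annotated start, 26.0% held TGTTTAC, 20.5% TGTTTGC and 19.2% CAAAGTC, beside 23.8%, 25.7% and 15.8% of such anchors in all. Over all partners each share was thus below that of all anchors. Among partners with no start TGTTTAC and CAAAGTC lay above and TGTTTGC below.

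For FOXA1 the 7 genes together had 110 loops in the liver mets list and 106 in the tumor list, and for HNF4G they had 60 and 81. Where values below follow one another without labels, FOXA1 comes before HNF4G and liver mets before tumor. The FOXA1 lists were close to equal in number, and HNF4G had fewer loops in liver mets. Dividing liver mets by tumor loops gave 1.04 for FOXA1, with a 95% interval of 0.787 to 1.37. For HNF4G the ratio was 0.741 (0.521 to 1.05). Both intervals included 1. With only the start of each gene record, the ratios were 0.980 (0.734 to 1.31) for FOXA1 and 0.70 (0.488 to 0.997) for HNF4G, the second of which excluded 1. Over all promoter loops the ratios were 1.19 for FOXA1 and 0.987 for HNF4G. The interval of each member ratio included the corresponding value over all promoter loops.

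**Figure D1:**
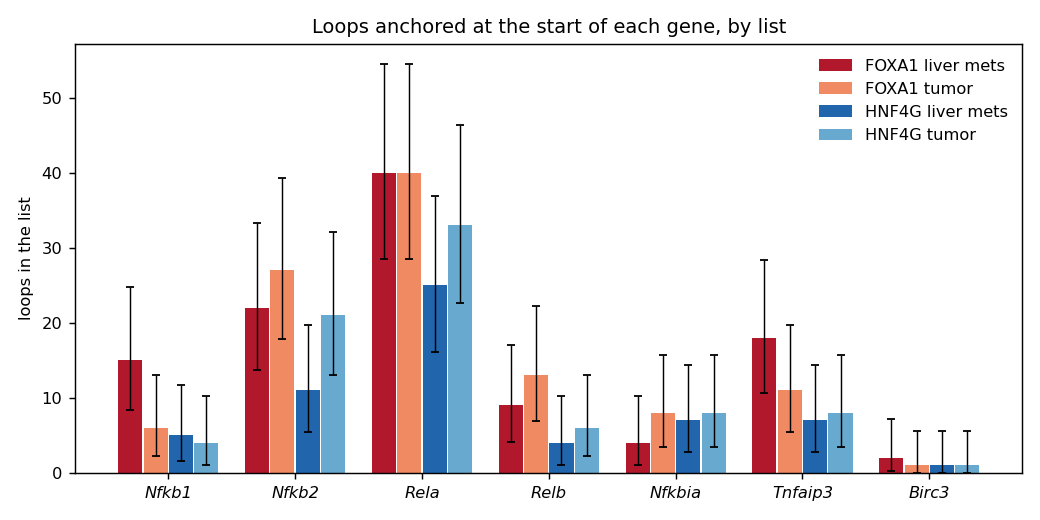
Number of loops (vertical axis) with an anchor at the start of each gene (horizontal axis), with 1 bar per list and exact Poisson 95% intervals. Rela has 25 to 40 loops in every list and Birc3 1 or 2. Nfkb1 and Tnfaip3 are highest in FOXA1 liver mets, with 15 and 18 loops.

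The genes differed far more among themselves than the lists did. Summed over the 4 lists, Rela had 138 loops, Nfkb2 81, Tnfaip3 44, Relb 32, Nfkb1 30, Nfkbia 27 and Birc3 5. The median over the 10786 protein-coding genes with a promoter anchor was 23 and the median of the members 32. Rela had more loops than 97.1% of those genes and Nfkb2 more than 90.1%, whereas Birc3 exceeded 7.07%. The number of anchors nearby followed a like order at the ends, with 73 other anchors within 500 kb of the Rela anchor and 7 within 500 kb of the Birc3 anchor. The part of anchor density in the counts was not tested beyond the shares given next.

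To account for anchor density, loops were counted as a share of all pairs between a promoter anchor and another anchor in a range of distance. From 100 to 500 kb, 28.4% of 208 such pairs at the 7 genes were listed in FOXA1 liver mets (Wilson 95% interval 22.7 to 34.8%), beside 16.6% over all promoter anchors. In FOXA1 tumor the share was 29.3% (23.6 to 35.8%), beside 13.9%. For HNF4G it was 13.0% in liver mets (9.08 to 18.2%), beside 9.94%, and 18.8% in tumor (14.0 to 24.6%), beside 10.4%. The interval lay above the share over all promoter anchors in 3 of the 4 lists, and HNF4G liver mets was the exception. By gene the share in FOXA1 liver mets was 42.3% at Tnfaip3, 36.7% at Rela, 35.5% at Nfkb2, 22.2% at Nfkb1, 13.0% at Relb, 1 of 5 pairs at Nfkbia and 0 of 4 at Birc3. Below 100 kb, between 50.0% and 54.3% of the 46 pairs were listed, beside 35.7% to 48.0% over all promoter anchors. In that range the interval lay above this share in HNF4G tumor alone (36.1 to 63.9%, beside 35.7%).

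**Figure D2:**
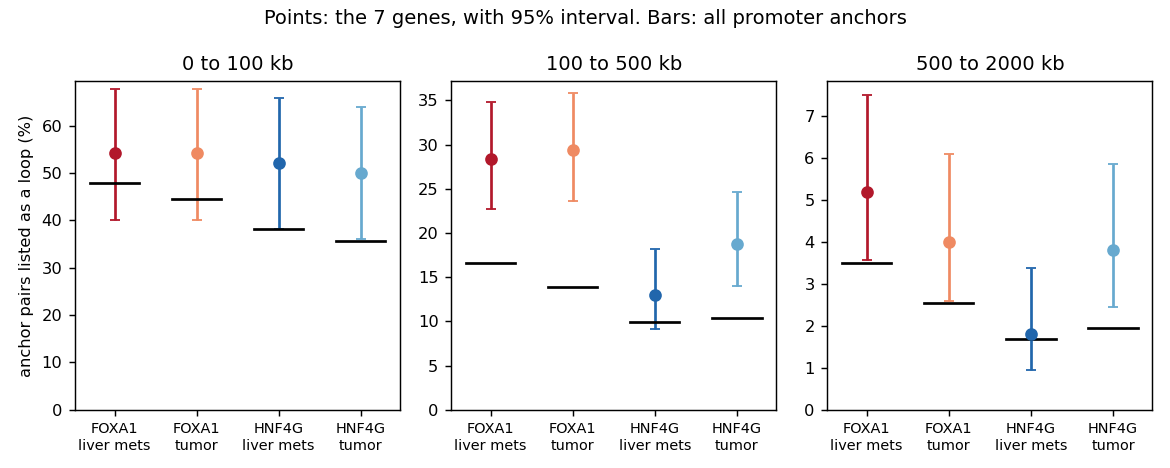
Share of anchor pairs that were listed as a loop (vertical axis, percent) in each list (horizontal axis) for 3 ranges of distance, 1 panel each. Points with Wilson 95% intervals are the 7 genes and black bars all promoter anchors. In the middle panel the points lie at 28.4%, 29.3%, 13.0% and 18.8%, and the bars at 16.6%, 13.9%, 9.94% and 10.4%.

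Of the 217 distinct loops, 16 (7.37%, Wilson 95% interval 4.59 to 11.6%) were in all 4 lists, beside 5.54% of all promoter loops. A single list held 133 of them (61.3%, 54.7 to 67.5%), beside 65.7%. Both shares were near the background. The loops found in both FOXA1 lists and in no other numbered 17 (7.83%, 4.95 to 12.2%), beside 5.49% of promoter loops. Those in both HNF4G lists alone numbered 2 (0.922%, 0.253 to 3.30%), beside 1.94%. Both liver mets lists alone held 3 (1.38%, 0.471 to 3.99%), beside 3.45%, and both tumor lists alone held 10 (4.61%, 2.52 to 8.27%), beside 2.61%. All 4 intervals included the background.

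Sharing fell with distance. Below 100 kb 11 of 37 distinct loops were in all 4 lists (29.7%, 17.5 to 45.8%), beside 16.2% of promoter loops of that range. This interval lay above the background. The share in 1 list only was 27.0% there (15.4 to 43.0%), beside 34.1%. Between 100 and 500 kb the count in all 4 lists was 5 of 113 (4.42%, 1.90 to 9.94%), beside 2.14%. In that range 55.8% were in 1 list only (46.6 to 64.6%), beside 69.2%, and this interval lay below the background. At 500 kb and beyond the count in all 4 lists was 0 of 67, and 89.6% were in 1 list only, beside 91.0%. The median span of the member loops was 178 kb (liver mets) and 170 kb (tumor) for FOXA1, and 124 and 179 kb for HNF4G. Over all promoter loops the medians were 174, 150, 123 and 142 kb.

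**Figure D3:**
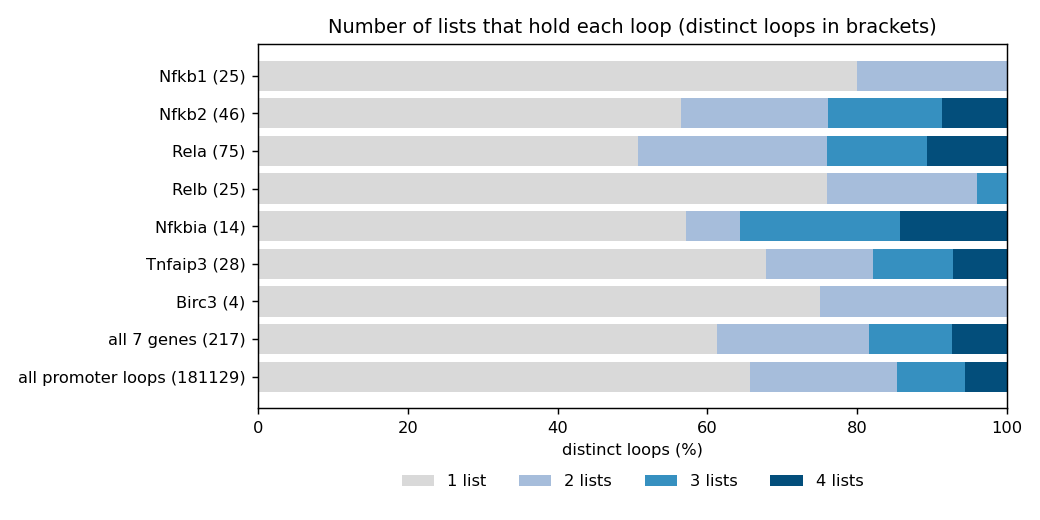
Share of distinct loops (horizontal axis, percent) that were in 1, 2, 3 or 4 lists, for each gene, for all 7 genes and for all promoter loops (vertical axis, number of distinct loops in brackets). Nfkb1, Relb and Birc3 have no loop in all 4 lists, and Nfkbia has the widest bar for 4 lists, 14.3% of its 14 loops.

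The overlap of lists is given as a share of each. The FOXA1 lists shared 47 member loops, 42.7% of those in liver mets (Wilson 95% interval 33.9 to 52.1%) and 44.3% of those in tumor (35.2 to 53.8%), beside 34.2% and 40.6% over all promoter loops. For HNF4G the lists shared 28, which was 46.7% of liver mets (34.6 to 59.1%) and 34.6% of tumor (25.1 to 45.4%), beside 34.1% and 33.7%. Across factors, 40 loops were common in tumor, 37.7% of FOXA1 (29.1 to 47.2%) and 49.4% of HNF4G (38.8 to 60.0%), beside 29.6% and 38.4%. In liver mets 29 were common, 26.4% of FOXA1 (19.0 to 35.3%) and 48.3% of HNF4G (36.2 to 60.7%), beside 28.3% and 44.1%. Of the 8 intervals 6 included the background, and those of HNF4G liver mets against HNF4G tumor and of HNF4G tumor against FOXA1 tumor began less than 1 percentage point above it.

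Each loop had a deposited value without a name, read here as an adjusted p on a −log10 scale that ends at 20. Values of 2 or more were reached by 20 member loops in FOXA1 liver mets (18.2%), beside 9.57% of promoter loops. The count was 18 in FOXA1 tumor (17.0%), beside 8.28%. In the HNF4G lists 12 loops reached it in liver mets (20%), beside 7.8%, and 12 in tumor (14.8%), beside 8.02%. The Wilson 95% intervals were 12.1 to 26.4% and 11.0 to 25.3% for FOXA1, and 11.8 to 31.8% and 8.68 to 24.1% for HNF4G, each above its background. These loops came from Rela (16 distinct loops that reached 2 in any list), Nfkb2 (11), Tnfaip3 (10), Relb (4), Nfkbia (2) and Birc3 (1), and Nfkb1 had none.

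The value limits what long loops can show. All member loops of 1000 kb or more (9, 6, 4 and 7 in the order given above) had 1 and the same value within a list (1.87, 1.91, 1.99 and 1.99). Values near those are therefore not ordered by strength. Each list also had a lower tied value (0.0889, 0.123, 0.146 and 0.171), which 6, 6, 4 and 8 member loops had. Small values near it are not ordered by strength either. On the reading used here they are weak evidence that a listed loop exists. Since the tied values differ between lists, the same value need not stand for equal evidence in each.

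**Figure D4:**
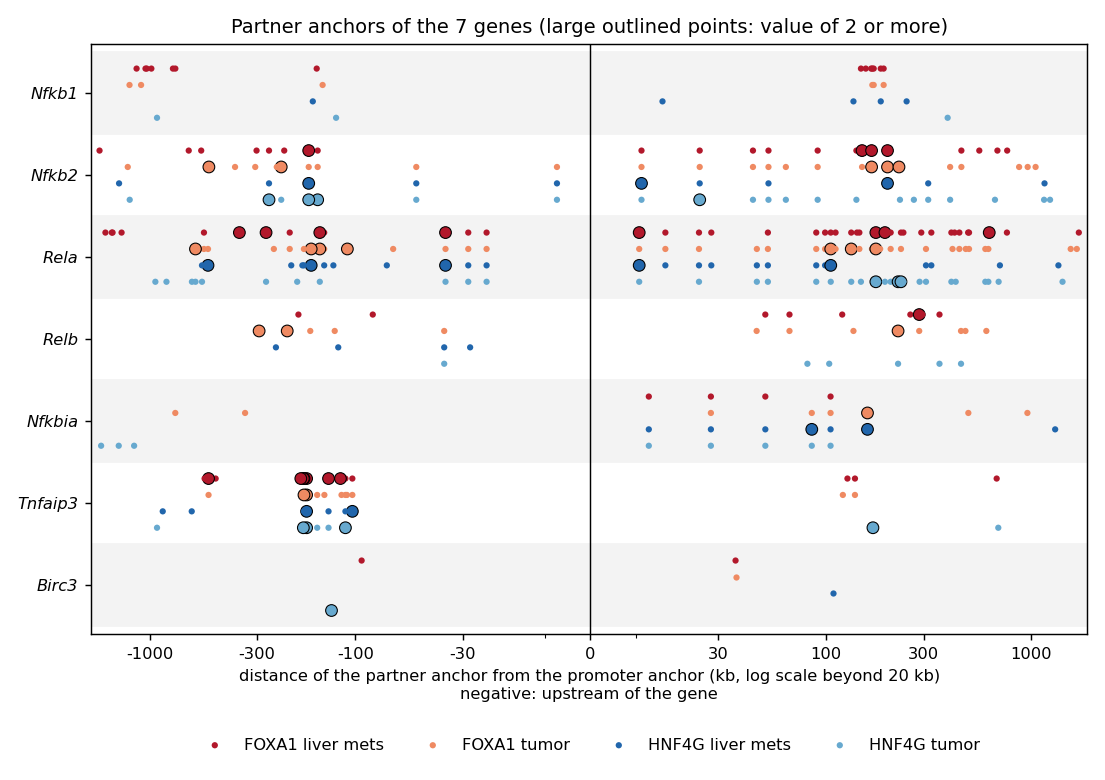
Distance of each partner anchor from the promoter anchor (horizontal axis, kb, log scale beyond 20 kb, negative for upstream of the gene) for the 7 genes (vertical axis), with 1 row of points per list. Large outlined points have a value of 2 or more. Tnfaip3 has its large points mostly between 100 and 200 kb upstream, Nfkbia has partners on the downstream side below 110 kb, and Nfkb1 has no large point.

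Rela, which encodes the main transactivating subunit of the canonical arm, lies at chr19:5637483-5648130 on the plus strand (mm10), and its promoter anchor was chr19:5636405-5639874. For FOXA1 it had 40 loops in liver mets (28.6 to 54.5) and 40 in tumor (28.6 to 54.5), exact Poisson 95% intervals in parentheses. For HNF4G the counts were 25 (16.2 to 36.9) and 33 (22.7 to 46.3). The intervals of the 4 lists overlapped. Of its 75 distinct loops 8 were in all 4 lists, and 81.3% had another promoter as partner.

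Near the gene most anchors were partners in every list. Of the 13 anchors within 100 kb of the Rela anchor, 10 (liver mets) and 11 (tumor) were joined to it for FOXA1 and 12 and 8 for HNF4G, 7 of them in all 4 lists. The nearest partner lay 10.7 kb downstream at the 3′ end of Rela itself and had values of 3.25 (liver mets) and 0.312 (tumor) for FOXA1 and of 3.02 and 1.83 for HNF4G. The liver mets lists were the higher ones for both factors at this loop. The start of Kat5, a histone acetyltransferase gene, 28.2 kb upstream had values of 1.47, 1.78, 0.857 and 0.948 in the same order of lists. Here both tumor lists were higher. A second anchor at Kat5, which also holds the start of Rnaseh2c, lay 36.4 kb upstream. It had 2.81, 0.399, 2.74 and 0.171, with both liver mets lists higher. The order of the lines was thus not the same at these loops. The other named partners in all 4 lists were an anchor outside genes 23.0 kb upstream, with values of 0.171 to 0.766, and the starts of Pcnx3 and Sipa1 24.2 kb downstream, with 0.145 to 0.804.

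The highest value at Rela belonged to the start of Ltbp3, which encodes a protein that binds latent TGF-beta, 106 kb downstream. This loop was in all 4 lists, with 1.21 in liver mets and 7.23 in tumor for FOXA1 and 2.31 and 1.19 for HNF4G. FOXA1 tumor stood apart from the rest here.

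Farther downstream, a stretch between 160 and 240 kb was picked after the loops were seen. It holds the noncoding RNA gene Neat1 and the gene Frmd8. Rela had 5 loops there in each FOXA1 list and 6 in HNF4G tumor. The strongest of them, 176 kb downstream and outside genes, had values of 3.97, 2.80 and 4.78 in the 3 lists that held it. The HNF4G liver mets list held 0 loops of this stretch. On the upstream side, the start of Efemp2 at 164 kb was in FOXA1 tumor (2.68) and HNF4G liver mets (4.84), and the start of Cfl1 and Mus81 at 149 kb in HNF4G tumor (1.60) and both FOXA1 lists (3.54 in liver mets, 4.16 in tumor).

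Among loops held by 1 factor alone, a second Ltbp3 anchor 112 kb downstream (1.87 in liver mets, 1.91 in tumor) and an anchor in Cnih2 544 kb upstream (1.80 and 1.90) were in both FOXA1 lists, and the start of Tmem151a 556 kb upstream (1.99 in each) was in both HNF4G lists. Both tumor lists alone held 3 loops. Among them were those to B4gat1 and Brms1 598 kb upstream (3.76 for FOXA1, 1.99 for HNF4G) and to Ppp2r5b 598 kb downstream (1.91 and 1.99). The liver mets lines alone held the start of Pola2 327 kb downstream (1.68 and 1.91) and a Pcnx3 anchor 27.8 kb downstream (0.216 and 0.873). The longest loop joined Rela to Mark2 at 1702 kb, in FOXA1 liver mets only.

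Nfkb1 encodes the precursor of the usual DNA-binding partner of RelA and lies at chr3:135584655-135691547 on the minus strand. Its 2 promoter anchors were chr3:135689322-135692562 at the start of the gene record and chr3:135668552-135672993 at starts within the gene, 20.2 kb apart. Its loops numbered 15 (8.40 to 24.7) in liver mets and 6 (2.20 to 13.1) in tumor for FOXA1, and 5 (1.62 to 11.7) and 4 (1.09 to 10.2) for HNF4G. FOXA1 liver mets was the highest, with a ratio to FOXA1 tumor of 2.50 whose interval (0.917 to 7.86) included 1. With the gene record start alone the counts were 8, 3, 2 and 4.

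Nfkb1 shared no loop across all 4 lists, and 20 of its 25 distinct loops were in 1 list only. The intervals of these shares (0 to 13.3% and 60.9 to 91.1%) included those over all promoter loops (5.54% and 65.7%). No Nfkb1 loop reached a value of 2. The highest, 1.99 in HNF4G tumor to an anchor outside genes 919 kb upstream, was the tied value of that list. The most frequent partner was Manba, the neighboring gene for a lysosomal mannosidase. Anchors in or at the start of Manba, 137 to 192 kb downstream, had 7 liver mets and 3 tumor loops for FOXA1, and 2 and 0 for HNF4G. One Manba intron anchor was joined to both Nfkb1 anchors in both FOXA1 lists and in no HNF4G list, with values of 1.41 and 1.58 from the gene record start and 1.33 and 1.53 from the inner start. A start of Manba 185 kb away was held by both liver mets lists alone (1.42 for FOXA1, 1.76 for HNF4G).

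The remaining Nfkb1 loops were mostly long and in 1 list. Partners 500 kb or more upstream, toward Ppp3ca, numbered 6 (liver mets) and 2 (tumor) for FOXA1, and 0 and 1 for HNF4G. All 9 were in 1 list only, and the longest, 1251 kb, was in FOXA1 tumor.

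Nfkb2, which encodes the precursor of the non-canonical arm, lies at chr19:46304320-46312385 on the plus strand. Its anchor, chr19:46302640-46306740, also holds a start of the noncoding gene AC114539.1, and the loops of the 2 genes cannot be told apart. For FOXA1 it had 22 loops in liver mets (13.8 to 33.3) and 27 in tumor (17.8 to 39.3). For HNF4G the counts were 11 (5.49 to 19.7) and 21 (13.0 to 32.1). HNF4G liver mets was the lowest, with a ratio to HNF4G tumor of 0.524 (0.228 to 1.14). Of the 46 distinct loops 4 were in all 4 lists.

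The partners in all 4 lists were starts of neighboring genes. Psd, 11.2 kb downstream, had values of 1.22 (liver mets) and 1.10 (tumor) for FOXA1, and 2.26 and 1.99 for HNF4G. The anchor with starts of Cuedc2, Fbxl15 and Psd, 24.4 kb downstream, had 0.893, 0.353, 1.73 and 2.03. Both loops had higher values in the HNF4G lists than in the FOXA1 lists. The 1.99 at Psd is the tied value of HNF4G tumor, and values need not stand for equal evidence across lists. Mfsd13a, 52.8 kb downstream, ranged from 0.0889 to 1.92. Pitx3, a homeobox gene 168 kb upstream, had 2.27, 1.54, 4.90 and 2.92 and was likewise highest for HNF4G.

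The strongest Nfkb2 loop joined it to Trim8, a ubiquitin ligase gene 200.0 kb downstream. It had 2.61 in FOXA1 liver mets, 6.92 in FOXA1 tumor and 7.42 in HNF4G liver mets, and it was not in HNF4G tumor. Sufu, a gene of the Hedgehog pathway, was a partner in 3 of the 4 lists. A start 150 kb downstream had 5.23 in liver mets and 1.46 in tumor for FOXA1, and an anchor within the gene at 167 kb had 2.35 and 2.74, and neither was in an HNF4G list. A further start 155 kb downstream was in FOXA1 liver mets alone (1.22). The remaining Sufu anchors were highest in HNF4G tumor. The start shared with Actr1a 91.5 kb downstream had 0.0889 (liver mets) and 0.485 (tumor) for FOXA1 and 1.71 in HNF4G tumor, and an intron anchor at 141 kb had 1.10 in FOXA1 liver mets and 1.53 in HNF4G tumor. No Sufu loop was in HNF4G liver mets.

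Both HNF4G lists alone held an intron of Wbp1l 315 kb downstream (1.89 and 1.90). Both tumor lists alone held 4 loops, led by Nolc1 229 kb upstream (3.11 for FOXA1, 1.80 for HNF4G) and As3mt 403 kb downstream (1.85 and 1.95), and no loop was held by the liver mets lists alone. The longest loop, 1750 kb to Ndufb8, was in FOXA1 liver mets.

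Relb encodes the partner of the processed Nfkb2 product and lies at chr7:19606217-19629438 on the minus strand, with its anchor at chr7:19626811-19630317. FOXA1 had 9 loops there in liver mets (4.12 to 17.1) and 13 in tumor (6.92 to 22.2), and HNF4G 4 (1.09 to 10.2) and 6 (2.20 to 13.1). None of the 25 distinct loops was in all 4 lists and 19 were in 1 list. The intervals of these shares (0 to 13.3% and 56.6 to 88.5%) included those over all promoter loops (5.54% and 65.7%). The partner was a promoter in 80.0% of the 25 loops.

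On the downstream side, 46.2 to 605 kb away, FOXA1 had 7 loops in liver mets and 8 in tumor, and HNF4G had 0 and 5. Upstream the counts were 2, 5, 4 and 1. All 4 loops of Relb in HNF4G liver mets thus ran upstream, and the other 3 lists each had more loops downstream than upstream. These counts are small, and the difference was not tested.

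The highest value was the loop to Ercc1, a DNA repair gene 285 kb downstream, which was in both FOXA1 lists alone (5.07 in liver mets, 1.76 in tumor). The start of Ppp1r37 at 66.7 kb was also in those lists alone, with 0.339 and 0.123. Both tumor lists alone held the anchor of Ckm and Klc3 225 kb downstream (4.82 for FOXA1, 1.80 for HNF4G) and an anchor outside genes at 455 kb (1.87 and 1.96). The longest loop ran 605 kb to the anchor of Sympk and Foxa3, a gene of the same family as Foxa1, in FOXA1 tumor only. Outside the naming rule, a loop to Bcl3, an atypical inhibitor of the same pathway that lies 189 kb upstream, was picked after its value was seen and was in FOXA1 liver mets alone (1.44).

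Nfkbia, whose product IkB-alpha traps NF-kB dimers in the cytoplasm, lies at chr12:55489410-55492647 on the minus strand. Its anchor, chr12:55491022-55496403, also holds a start of Gm36634. Its loops numbered 4 (1.09 to 10.2) in liver mets and 8 (3.45 to 15.8) in tumor for FOXA1, and 7 (2.81 to 14.4) and 8 (3.45 to 15.8) for HNF4G. It was the only member with fewer loops in FOXA1 liver mets than in each of the other lists. The ratio of FOXA1 liver mets to tumor was 0.50 with an interval of 0.110 to 1.87.

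All 5 partners less than 110 kb downstream, toward the proteasome subunit gene Psma6, were held by 3 or 4 lists. An anchor outside genes 27.7 kb downstream had 1.59 (liver mets) and 0.364 (tumor) for FOXA1, and 0.146 and 0.171 for HNF4G. An intron of Psma6 at 106 kb had 0.0984, 0.937, 1.31 and 1.15. The order of the lists was thus not the same at both.

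The highest value at Nfkbia was an intron of 1110008L16Rik 160 kb downstream, with 6.23 in FOXA1 tumor and 3.0 in HNF4G liver mets. It was not in FOXA1 liver mets or HNF4G tumor, so neither a factor nor a line held it in full. All 8 partners more than 340 kb away were in 1 list each. The FOXA1 lists held 0 (liver mets) and 4 (tumor) of them, and the HNF4G lists 1 and 3. The longest ran 1719 kb in HNF4G tumor. No loop was held by both lists of 1 factor or of 1 line alone. Only 21.4% of the partners were promoters.

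Tnfaip3 encodes A20, a ubiquitin-editing enzyme that ends NF-kB signaling, and lies at chr10:19000910-19015657 on the minus strand. Its main anchor was chr10:19014004-19016161, and a second, chr10:19007704-19009674, lay at an inner start. For FOXA1 it had 18 loops in liver mets (10.7 to 28.4) and 11 in tumor (5.49 to 19.7). For HNF4G the counts were 7 (2.81 to 14.4) and 8 (3.45 to 15.8). The liver mets to tumor ratio was 1.64 for FOXA1 (0.732 to 3.83) and 0.875 for HNF4G (0.270 to 2.76).

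Most loops of Tnfaip3 ran upstream, 21 of the 27 that left the gene, and only 25.9% reached a promoter. A stretch 100 to 200 kb upstream, chr10:19116298-19193987, much of it within Gm20139, held 7 partner anchors and 12 distinct loops. It took 8 loops in each FOXA1 list and 5 in each HNF4G list. Within each factor the lines thus had equal numbers there. All other Tnfaip3 loops numbered 10 (liver mets) and 3 (tumor) for FOXA1, and 2 and 3 for HNF4G.

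The partner at 172 kb upstream, chr10:19185084-19189677, was in all 4 lists. Its values were 3.95 in liver mets and 11.2 in tumor for FOXA1, and 20 in liver mets and 2.94 in tumor for HNF4G. The value in HNF4G liver mets was the top of the scale and the highest of any member loop. The lines were ordered in opposite ways for the factors, with FOXA1 higher in tumor and HNF4G higher in liver mets.

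The next anchor, chr10:19191060-19193987 at 177 kb, had another order, with 10.2 in FOXA1 liver mets, 2.79 in FOXA1 tumor and 1.73 in HNF4G liver mets, and it was not in HNF4G tumor. From the main anchor, a partner at 135 kb had 7.95 in FOXA1 liver mets and no loop in FOXA1 tumor, and for HNF4G it had 1.57 and 1.49. FOXA1 tumor held a loop to that partner from the inner start instead, 141 kb long with a value of 1.39. The partner outside genes at 112 kb was in all 4 lists, with 1.33, 1.07, 1.40 and 2.16. The anchor at 172 kb thus had the highest value of the stretch in FOXA1 tumor and in both HNF4G lists. In FOXA1 liver mets the anchor at 177 kb had it. The inner start was joined to 5 anchors of the same stretch in at least 1 list, with values of up to 3.01.

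**Figure D5:**
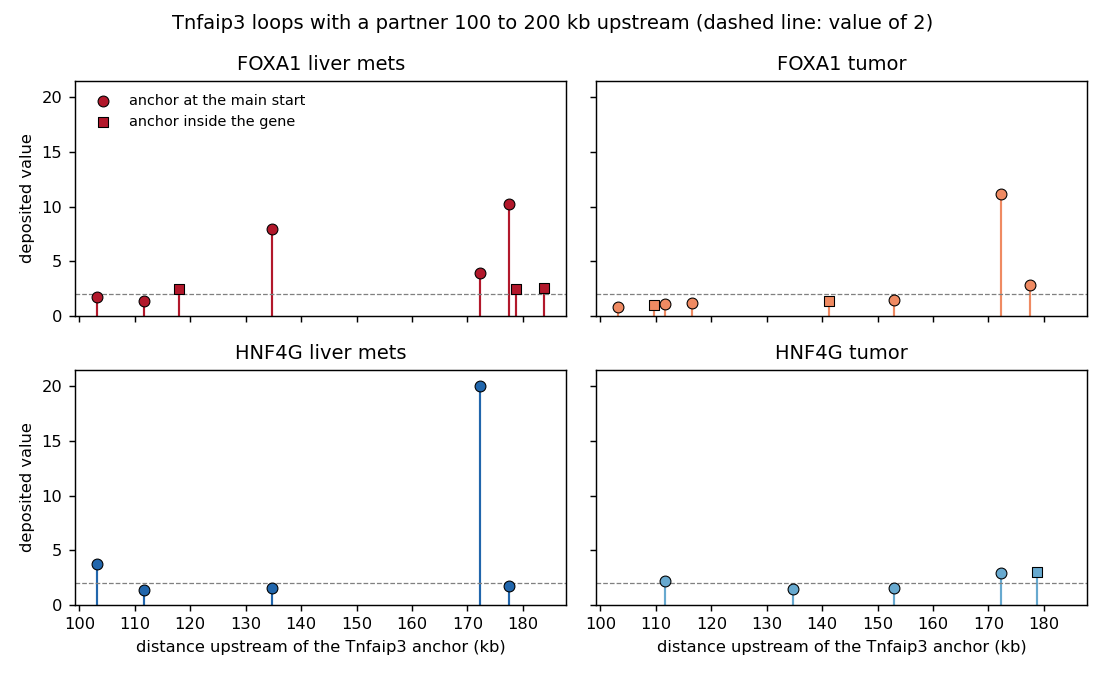
Deposited value (vertical axis) of Tnfaip3 loops against the distance of the partner upstream (horizontal axis, kb), 1 panel per list, with circles for the anchor at the main start and squares for the inner anchor. The partner at 172 kb stands at 3.95, 11.2, 20 and 2.94, and the partners at 177 and 135 kb stand at 10.2 and 7.95 in FOXA1 liver mets.

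Both FOXA1 lists alone held an anchor outside genes 516 kb upstream (3.49 in liver mets, 1.90 in tumor) and another 139 kb downstream (1.08 and 1.39). Both tumor lists alone held the start of Gm20139 153 kb upstream (1.46 for FOXA1, 1.58 for HNF4G). The longest loop joined Tnfaip3 to Map3k5, a kinase gene of stress signaling, 919 kb upstream in HNF4G tumor.

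Birc3 encodes an inhibitor of apoptosis that ubiquitinates proteins at TNF receptors, and lies at chr9:7848699-7873186 on the minus strand with its anchor at chr9:7872092-7873779. It had 2 loops in FOXA1 liver mets and 1 in each of the other lists. All 4 distinct partners were promoters. The paralog Birc2, 36.5 kb downstream, was joined in both FOXA1 lists alone (0.306 in liver mets, 0.393 in tumor). The highest value and the longest span belonged to a start of Yap1, a transcriptional coactivator gene, 131 kb upstream (2.58 in HNF4G tumor). At this number of loops no difference between lists was detectable.

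By the share of loops that fell in each list, the genes most like the members were Cebpd for Nfkb1, Mlxipl for Nfkb2, Map3k6 for Rela, Plau for Relb, Arhgap35 for Nfkbia, Cyth1 for Tnfaip3 and Sdf2 for Birc3. The measure was the sum of absolute differences of the 4 shares, which was 0.0364, 0.0104, 0.0157, 0.025, 0.0354, 0.0208 and 0 in that order. For Rela 731 genes lay below a sum of 0.1 and for Nfkb1 26, so the pattern of Rela was common and that of Nfkb1 less so. For Birc3, with 5 loops in all, 3 genes were tied.

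For FOXA1, loops to another promoter made up 65.5% (56.2 to 73.7%) in liver mets and 61.3% (51.8 to 70.0%) in tumor. For HNF4G the shares were 61.7% (49.0 to 72.9%) and 65.4% (54.6 to 74.9%). Over all promoter anchors, counted from each promoter end, the shares were 54.7%, 55.9%, 57.1% and 59.1%. The interval lay above this share in FOXA1 liver mets alone. Between genes the share ran from 21.4% at Nfkbia, 25.9% at Tnfaip3 and 29.2% at Nfkb1 to 67.4% at Nfkb2, 80.0% at Relb and 81.3% at Rela, and all 4 partners of Birc3 were promoters.

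Of 47 other genes of the pathway (further subunits and inhibitors, kinases, receptors with their adaptors, and ubiquitin enzymes) 36 had loops. Their loops numbered 498 (liver mets) and 441 (tumor) for FOXA1, and 314 and 331 for HNF4G. For FOXA1 the liver mets to tumor ratio was 1.13 (0.991 to 1.29), and for HNF4G it was 0.949 (0.810 to 1.11). For FOXA1, 17 genes had more loops in liver mets, 10 more in tumor and 9 equal numbers. For HNF4G these counts were 14, 17 and 5. All 4 lists held 69 of their 979 distinct loops (7.05%, 5.61 to 8.82%), and 608 (62.1%, 59.0 to 65.1%) were in 1 list. The backgrounds of 5.54% and 65.7% lay just outside these intervals, which treat loops as independent.

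The most loops belonged to Sharpin, a subunit of the linear ubiquitin ligase, with 49, 37, 31 and 33. Bcl3 followed with 49, 31, 27 and 29, and Nfkbiz, an inducible nuclear member of the inhibitor family, with 40, 37, 22 and 29. For all 3 genes FOXA1 liver mets was the highest list and HNF4G liver mets the lowest. The same lists were highest and lowest over all promoter loops (89230, 75229, 57348 and 58100). The genes with no listed loop included Ikbkb, a catalytic kinase subunit of the canonical arm, named after the counts were seen.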

How the data were processed

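The data were Hi-ChIP loop lists for 8 samples, 1 list per group. Following the study's methods, reads were mapped to mm10 and filtered with HiC-Pro (version 3.1.0 in the submitters' processing notes), and loops were called with hichipper. Each loop had a value deposited by the authors without a name, read here as an adjusted p on a −log10 scale because of its tied runs and its limit of 20. A display score, also deposited by the authors, went unused. Minimum read pairs per loop are not given in the sources used here, and depth is unknown.

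Starts came from GENCODE M21 on GRCm38. Span and distance ran between anchor midpoints, and loops were shared when both anchors were identical. Counts had exact Poisson intervals, ratios Clopper-Pearson intervals and shares Wilson intervals (95%). Python 3.11.15, pandas 2.3.3 and scipy 1.17.1 were used, and counting was tested on simulated lists. The members and gene lists were chosen with earlier results of these data known. For each gene the text names partners in all 4 lists (up to 5, nearest first), the loops of highest value and longest span, up to 2 partners held by 1 factor or 1 line alone, and, chosen after their values were seen, stretches of neighboring partners and further loops. Alternatives were another distance, the gene record start, a minimum value of 2 and widened anchors.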

Additional observations from a re-analysis of the deposited data

Results flagged for a closer look

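The liver mets to tumor ratio of loops at Tnfaip3 was 1.64 for FOXA1 and 0.875 for HNF4G, so the factors lay on opposite sides of 1. The same held for all 7 genes together, with 1.04 for FOXA1 and 0.741 for HNF4G, but not under every setting. With only the start of each gene record both ratios lay below 1 (0.980 for FOXA1, and 0.70 for HNF4G with an interval of 0.488 to 0.997), and with values of 2 or more they were 1.11 and 1.00. At Tnfaip3 the order held in both settings, with 13 and 8 FOXA1 and 6 and 7 HNF4G loops in the first and 7 and 2, and 2 and 4, in the second. Each ratio rests on 1 list per group, and the 95% intervals of the 4 ratios given first included 1. Whether the factors differ was not tested.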

How the results depend on the processing

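No paired analysis was possible because each list joins both replicates of its group, and leaving out a replicate could not be run for the same reason. With values of 2 or more, the 7 genes had 20 loops (liver mets) and 18 (tumor) for FOXA1 and 12 in each line for HNF4G. In that setting the share in all 4 lists was 2.27%, the FOXA1 liver mets share with a promoter partner 50.0% and the HNF4G ratio 1.00, beside 0.741. Anchors widened by 5 kb raised the share in all 4 lists to 16.6%. No share over all promoter loops is given for these settings. Neither value can therefore be set beside the 5.54% found with identical anchors and no minimum value.

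The share of loops with a promoter partner depended on how a promoter was defined. Starts within 5 kb gave 78.5% for FOXA1 in tumor, and for HNF4G 76.9% in liver mets and 77.6% in tumor. The gene record start gave 52.0% (liver mets) and 44.0% (tumor) for FOXA1 and 46.4% and 48.8% for HNF4G, and moved the FOXA1 ratio from 1.04 to 0.980, across 1, and the HNF4G ratio from 0.741 to 0.70, whose interval (0.488 to 0.997) excluded 1. In that setting Nfkb1 had 2 (liver mets) and 4 (tumor) HNF4G loops, beside 5 and 4, so the order of the lines changed. With 5 kb, Nfkb2 rose to 37 (liver mets) and 40 (tumor) loops for FOXA1 and 26 and 38 for HNF4G, since a further anchor entered. Requiring the start inside the anchor left the loop counts of every gene as they were. It lowered the share with a promoter partner to 56.4% (liver mets) and 51.9% (tumor) for FOXA1 and 55.0% and 58.0% for HNF4G. No share over all promoter anchors is given for that definition. Counting error alone is covered by all intervals, and the spread between cultures and the depth of the lists are unknown.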
